A study of Mus musculus with 2 samples.

Results

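Adipocyte precursors of the skin are fibroblast-like cells that are isolated with antibodies to surface proteins, and 8 genes used for that purpose or as markers of the precursor state were followed here: Ly6a, Pdgfra, Cd34, Dlk1, Pi16, Dpp4, Cd24a and Cd9. They were chosen by symbol, with earlier results of these data known, and are 8 of the 27998 genes in the count files. They were read in cells in which 4 genes of fibroblast matrix, Col1a1, Col1a2, Col3a1 and Dcn, together made up at least 1% of the unique molecular identifiers (UMIs, each standing for 1 captured transcript), and then in the other lineages of the skin. This gate took 6681 of 9875 control cells and 3642 of 8389 cells of the treated library.

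The series asks what dermal adipogenesis does in neutrophilic skin inflammation. Dorsal skin came from wild-type C57BL/6 mice that were 2 months old and, per the design text, female. One group was given imiquimod (IMQ), which activates Toll-like receptors and causes a psoriasis-like dermatitis, on the skin every day for 5 days, and the other was the control; the sources used here do not say whether a vehicle was put on control skin. The tissue was digested enzymatically, dead cells were removed, and 3′ transcript ends of single cells were sequenced from droplets, a route that lipid-filled adipocytes rarely survive. Each group was 1 library, and the number of mice behind it is not given, so no test of the treatment was possible. Each difference is one between 2 libraries, and the ranges given in parentheses are exact 95% intervals for counting error alone.

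Ly6a (Sca-1) and Cd34 are glycoproteins found on many progenitor cells, the former also on lymphocytes and endothelium, and Pdgfra is the platelet-derived growth factor receptor by which fibroblasts and adipocyte precursors are sorted. Dlk1 (Pref-1) is a transmembrane relative of the Notch ligands whose shed ectodomain holds back adipocyte differentiation, Pi16 and the peptidase Dpp4 mark an interstitial progenitor state of connective tissue, and the mucin-like Cd24a and the tetraspanin Cd9 have been used to divide precursors into subsets.

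The genes lie on 8 chromosomes of GRCm38 (GENCODE M21): Ly6a at chr15:74994877-74998031, Pdgfra at chr5:75152292-75198215, Cd34 at chr1:194938819-194961279, Dlk1 at chr12:109452823-109463336, Pi16 at chr17:29317680-29330593, Dpp4 at chr2:62330073-62412231, Cd24a at chr10:43578284-43584265 and Cd9 at chr6:125460266-125494791. Ly6a, Dpp4 and Cd9 are on the minus strand. Annotated genes on the opposite strand overlap Pdgfra, Cd34, Pi16, Dpp4 and Cd9, and no source used here says whether the counting used strand, so reads of such partners cannot be told apart. Ly6a has close relatives in its gene family, among them Ly6c1, between which reads could be divided uncertainly. The promoters of 3 members are shown because Dpp4 and Cd9 had opposite patterns among the gated cells and Dlk1 was the rarest member. They are the bases before the RefSeq start (GRCm38.p6) that lie outside exons of the same strand, read 5′ to 3′ on the gene's strand, from chr12:109452573-109452822, chr2:62412232-62412481 and chr6:125494792-125495010. Capitals mark a TATA box (TATAAA) or a GC box (GGGCGG), searched on both strands with the CCAAT box (CCAAT). The printed matches do not overlap.
Dlk1: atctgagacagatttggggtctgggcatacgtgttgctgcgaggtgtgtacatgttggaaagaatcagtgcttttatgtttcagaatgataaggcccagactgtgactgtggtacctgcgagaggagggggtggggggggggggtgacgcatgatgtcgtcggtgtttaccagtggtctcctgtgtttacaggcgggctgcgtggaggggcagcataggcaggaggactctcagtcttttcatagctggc
Dpp4: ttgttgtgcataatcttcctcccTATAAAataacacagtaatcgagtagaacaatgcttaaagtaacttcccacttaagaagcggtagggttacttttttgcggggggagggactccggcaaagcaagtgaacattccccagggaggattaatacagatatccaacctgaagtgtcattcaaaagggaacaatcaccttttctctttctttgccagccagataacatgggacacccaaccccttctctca
Cd9: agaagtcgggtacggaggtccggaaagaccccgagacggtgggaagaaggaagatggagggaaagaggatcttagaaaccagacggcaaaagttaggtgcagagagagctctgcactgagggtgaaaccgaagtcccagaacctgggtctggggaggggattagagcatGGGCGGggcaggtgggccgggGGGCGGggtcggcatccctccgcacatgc
The Dpp4 window held 1 match to the TATA box letters, near its 5′ end and so far from the start, and had a GC content of 43.6%. The Cd9 window held 2 GC boxes at 61.2% GC, and the Dlk1 window held none of the 3 motifs at 54.8% GC. Of 32851 promoters of 250 bases, 12.4% held a TATA box, 33.9% a CCAAT box and 32.7% a GC box, so a match in either window is a description only. RefSeq entries matched 6 of the 8 members, all but Ly6a and Cd24a.

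Gated cells had a median of 9474 UMIs in the control and 13297 in the IMQ library, so shares of cells with a UMI are also given after each cell was thinned to 2000 UMIs, which kept 6362 and 3506 cells. A set of 20 barcode sequences occurred in both libraries. Doublet calling marked 4.10% of control and 1.29% of IMQ cells, against 8.24% and 6.80% expected from the cell numbers, so mixed cells may remain. Near the gate, 177 control and 95 IMQ cells had 0.5 to 1% of UMIs in the gate genes and 121 and 118 had 1 to 1.5%. Just under it Ly6a was at 266 and 451 CPM (the gene's UMIs scaled to the total UMIs of the same cells, in the usual CPM unit) and Cd34 at 72.0 and 70.3, and just over it Ly6a was at 621 and 664 and Cd34 at 185 and 150. Markers of other lineages were low in the typical gated cell: the 10 keratinocyte markers had a median of 0.0126% of UMIs in control and 0.0114% in IMQ cells, the 10 pericyte and smooth muscle markers 0.0222% and 0.00710%, and the 8 endothelial and 10 macrophage markers 0. Still, 56 control and 17 IMQ gated cells had over 1% of UMIs in keratinocyte markers. The gate genes themselves filled a median of 8.004% of UMIs in control and 4.43% in IMQ gated cells, and leaving them out of the totals changed no member's call. Over the 14703 genes measured in gated cells, the median log2 ratio of IMQ to control was 0.25, against which each member's ratio may be read.

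In the gated cells the best-expressed members were Ly6a, Pi16 and Cd34, and 1 of the 8 members, Dlk1, differed by at least 2-fold with an interval that excluded equality. By that rule 11.5% of all measured genes were higher and 5.46% lower in the IMQ library, and of the members 1 was higher, 0 were lower and 7 met neither condition; their median log2 ratio was -0.06. These are sums over all gated cells, in which a change in the mix of cells and a change within a cell cannot be told apart.

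Ly6a stood at 1493 CPM (1484 to 1502) in control gated cells and 2299 (2286 to 2312) in IMQ gated cells. The IMQ level was 1.54-fold higher (1.53 to 1.55), and Ly6a UMIs were found in 95.9% of control and 97.3% of IMQ cells, or 86.0% and 91.4% at 2000 UMIs. Pdgfra was at 158 CPM (155 to 161) and 284 (279 to 288), a 1.79-fold higher IMQ level (1.75 to 1.84). Its share of cells with a UMI was 69.2% and 85.4%, and 27.6% and 39.6% after thinning. Both were thus at higher levels in the IMQ library, whereas Cd34 was lower. Cd34 was at 827 CPM (820 to 834) in control and 512 (506 to 518) in IMQ gated cells, 1.62-fold lower (1.59 to 1.64), with UMIs in 75.9% and 60.7% of thinned cells.

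Pi16, a secreted CAP-domain protein, was at 1058 CPM (1050 to 1066) in control and 1064 (1055 to 1073) in IMQ gated cells, a ratio of 1.01 (0.9943 to 1.017). The interval included equality, while more cells held its UMIs: 42.4% of thinned control and 54.2% of thinned IMQ cells had one. Dpp4, which trims chemokines and incretins, was at 201 CPM (197 to 204) and 159 (156 to 162), 1.26-fold lower in the IMQ library (1.23 to 1.30). Cd24a was the lowest member after Dlk1, at 28.2 CPM (26.9 to 29.5) in control and 16.03 (14.95 to 17.2) in IMQ cells, 1.76-fold lower (1.62 to 1.91). Cd9 was at 325 CPM (321 to 329) and 299 (294 to 304), a 1.09-fold lower level (1.07 to 1.11).

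Dlk1 was rare, with 27 UMIs in 14 of 6681 control cells and 85 UMIs in 24 of 3642 IMQ cells. Its level was 0.398 CPM (0.262 to 0.579) in control and 1.66 (1.32 to 2.05) in IMQ gated cells, 4.16-fold higher (2.67 to 6.67). The shares of cells with a UMI were 0.210% (0.115 to 0.351) and 0.659% (0.423 to 0.979). The 3 IMQ cells with most Dlk1 held 21, 14 and 12 UMIs, 47 of the 85, whereas no control cell held more than 5. With every cell given the same weight the log2 ratio was 0.98 in place of 2.06 and the gene was no longer called.

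**Figure D1:**
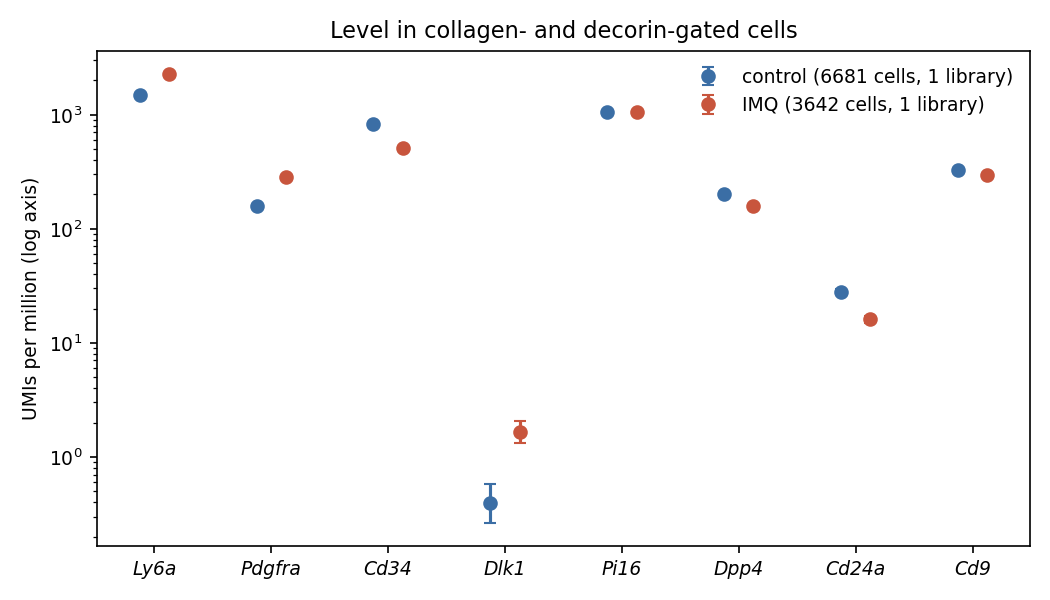
Level of each gene in gated cells of the control and IMQ libraries, in CPM on a log axis, with exact 95% counting intervals (most are smaller than the points). Ly6a, Pdgfra and Dlk1 sit higher in the IMQ library, Cd34 and Cd24a lower, and Pi16 at 1058 and 1064.

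Several of these sums depended on which cells entered. Pdgfra was called higher with a gate at 5% of UMIs (log2 ratio 1.19) or with the gate limited to fibroblast-like clusters (1.16), and was lower (-0.17) when 4 subclusters found in both libraries were weighted equally. Pi16 was at a log2 ratio of 1.73 when only gated cells of clusters named fibroblast-like were used, a choice that leaves out unnamed clusters with high Pi16. Cd24a was called lower under 5 alternatives, with log2 ratios down to -1.43.

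To see where among gated cells each gene was expressed, these cells were clustered again with all 8 members left out of the genes used, so that no member defined a subcluster directly. Since every gene of a cell follows its cluster to some degree, levels by subcluster are a description. Of the subclusters, 2 were named interstitial progenitor-like from Sema3c, Anxa3, Wnt2, Efhd1, Cd55, Mfap5, Cd248 and Ugdh, the markers set for that name, of which 8 were detected in number 3 and 5 in number 12. One, number 3, was led by Itgb7, Il18r1 and Efhd1 and held 1694 control and 77 IMQ cells, and the other, number 12, was led by Gm3336, Cxcl10 and Pde4c and held 8 control and 696 IMQ cells. Of the 13 subclusters, 5 were nearly confined to 1 library. Numbers 2, 4 and 5 held 1874, 1420 and 450 control cells against 7, 22 and 2 IMQ cells, and number 6, led by acute phase genes such as Hp and Saa3, held 10 against 1447, beside number 12. With 1 library per group, such a subcluster may be the library and not a cell type.

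Pi16 and Dpp4 were at higher levels in the interstitial progenitor-like cells than in the other gated cells of both libraries. In control, Pi16 was at 3987 CPM in these 1702 cells and 247 in the other 4979 gated cells, 16.2-fold higher (15.9 to 16.5), and 81.7% of gated Pi16 UMIs lay in them. In the IMQ library it was at 3018 CPM in 773 cells and 690 in the other 2869, 4.37-fold higher (4.30 to 4.45), with 45.5% of its UMIs in them. Outside the interstitial progenitor-like class, subcluster 7 had Pi16 at 1527 CPM in control and 1394 in IMQ cells. Subcluster 6 had it at 733 CPM in IMQ cells and held 35.5% of IMQ gated Pi16 UMIs. The 2 libraries fill this class from different subclusters, number 3 in control and number 12 in IMQ, and within number 3 Pi16 was at 3993 and 4900.2 CPM. Dpp4 did not share this spread: it was at 587 and 93.5 CPM in control and at 587 and 77.2 in IMQ cells, 6.28-fold (6.07 to 6.51) and 7.59-fold (7.26 to 7.94) higher inside.

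Cd9 had the opposite distribution. It was at 40.4 CPM in interstitial progenitor-like and 404 in other gated cells of the control, and at 43.0 and 348 in the IMQ library, 8.09-fold lower (7.28 to 9.02). Free RNA, estimated for gated cells from keratinocyte and leukocyte markers, could give Cd9 46.0 CPM in control and 21.1 in IMQ cells, so the control level inside was not above background and no fold is given for it. Ly6a was 2.09-fold (2.07 to 2.12) and 2.05-fold (2.02 to 2.07) higher inside, at 2526 against 1207 CPM in control and 4029 against 1968 in IMQ cells. Cd34 was 1.54-fold and 2.12-fold higher inside, at 1138 against 741 CPM and 920 against 434. Pdgfra was at 226 against 139 CPM in control, but in the IMQ library at 274 against 286, a ratio of 0.958 (0.915 to 1.002) whose interval included equality. Dlk1 had 0 of 85 IMQ UMIs inside.

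**Figure D2:**
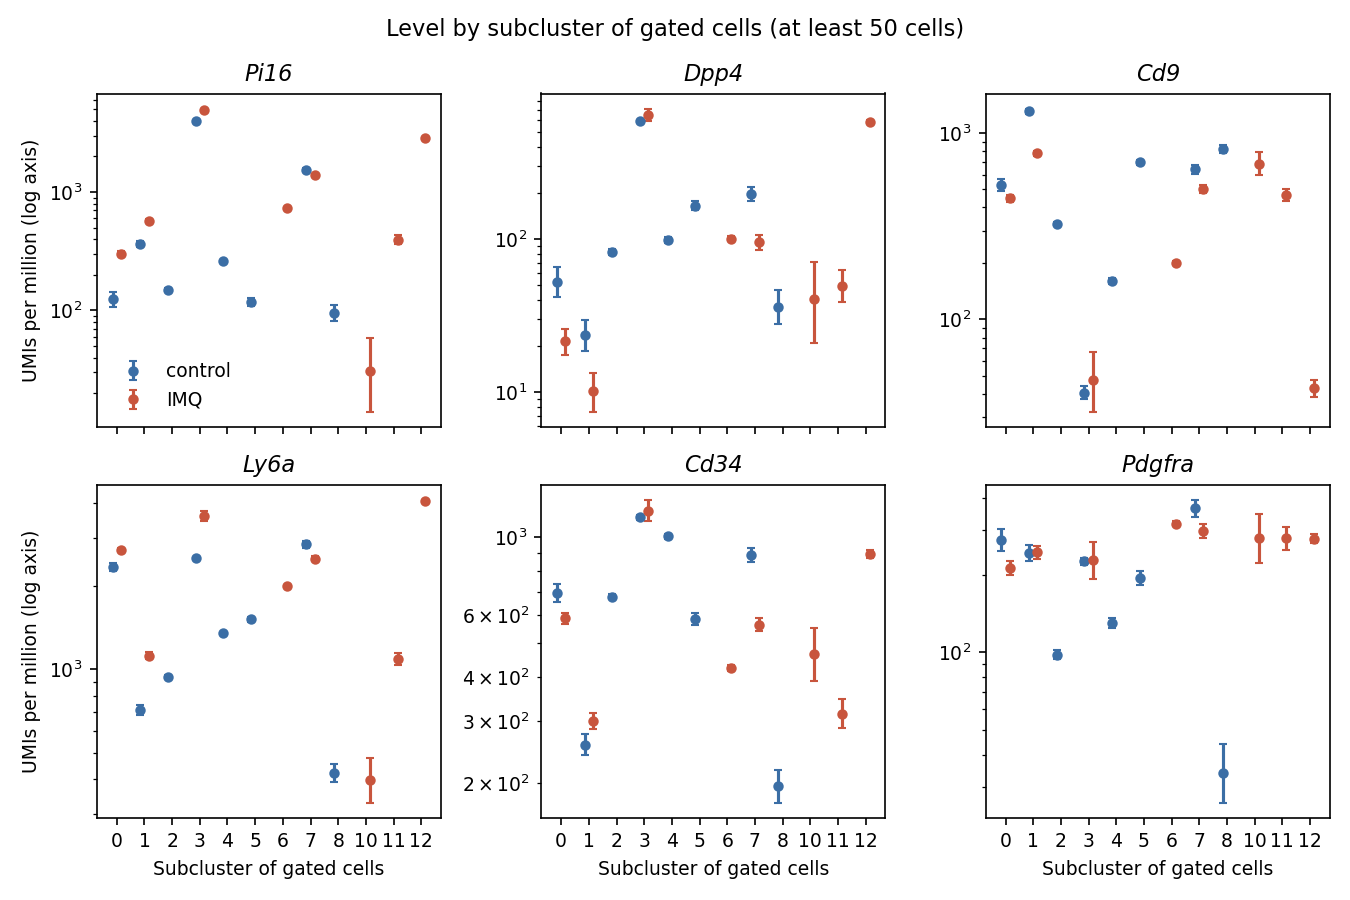
Level of 6 genes in each subcluster with at least 50 cells of a library, in CPM on log axes with exact 95% counting intervals, control in blue and IMQ in red. Pi16 and Dpp4 peak in subclusters 3 and 12, where Cd9 is lowest, at 40.4 CPM in control subcluster 3 and 42.6 in IMQ subcluster 12.

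Many neighbours in the order of levels, over 20 control and 23 IMQ subclusters and lineages, had overlapping intervals: 10 of 19 and 10 of 22 for Ly6a, 12 and 16 for Cd34, 13 and 19 for Pdgfra, 13 and 14 for Pi16, 14 and 20 for Dpp4, 16 and 17 for Cd24a, 6 and 14 for Cd9, and every one for Dlk1. In control, Ly6a ran from 2838 CPM in subcluster 7, led by Thbs4, Col8a1 and Cilp, through 2526 in subcluster 3 and 2358 in subcluster 0, led by Gdf10 and Vtn, down to 716 in subcluster 1, led by Wif1, Tnn and Coch, without overlap of neighbouring intervals. In the IMQ library its top places were subcluster 12 at 4067, 3 at 3588, 0 at 2710, 7 at 2520 and 6 at 2011. Cd34 was highest in subcluster 3 of both libraries, at 1139 and 1190 CPM, and in the IMQ library endothelial-like cells at 616 did not differ beyond their interval from subclusters 0 and 7 at 589 and 565. Pdgfra was lowest among control subclusters of fibroblast type in number 2 at 98.1 CPM and highest in number 7 at 365, and in IMQ it was flatter, from 213 in number 0 to 317 in number 6. Cd9 reached 1315 CPM in control and 780 in IMQ cells of subcluster 1.

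Subclusters 0, 1, 3 and 7 each held at least 50 cells of each library and no leading genes of another lineage, and were compared between libraries. They need not hold like cells: median depth in subcluster 0 was 2622 UMIs in control and 9657 in IMQ cells, and at resolution 1 cells led by Angptl7 (156 control, 89 IMQ) and by Thbs4 (114 and 168), both leading genes of subcluster 7, formed separate subclusters. The subclusters named interstitial progenitor-like at resolution 1 held 1554 control and 33 IMQ cells and 34 and 704, so neither had 50 of each library. Of all genes measured in subclusters 0, 1, 3 and 7, 8.85%, 11.1%, 6.34% and 3.29% were called higher in the IMQ library and 3.29%, 3.73%, 2.18% and 3.02% lower. Dpp4 was called lower in 3 of 4: it was at 52.7 CPM in control and 21.5 in IMQ cells of subcluster 0, 23.8 and 10.2 in subcluster 1, and 197 and 95.6 in subcluster 7, with log2 ratios of -1.29, -1.23 and -1.04. In the interstitial subcluster 3 it was at 588 (575 to 600) and 645 (585 to 710), a log2 ratio of 0.14. Among the 4 subclusters, the called Dpp4 differences therefore lay outside the one that expressed it most. Free RNA could give gated cells 8.81 CPM of Dpp4 in control and 2.22 in the IMQ library. In subcluster 1 the 3 cells of each library with most Dpp4 held 30 of 75 control and 21 of 49 IMQ UMIs. Without them Dpp4 was at 14.8 and 5.92 CPM there and was still called lower. Subclusters 0, 1 and 7 held 0.595%, 0.551% and 2.785% of control gated Dpp4 UMIs. The interstitial progenitor-like class, at 587.3 and 586.5 CPM, made up 1702 of 6681 control and 773 of 3642 IMQ gated cells. The part of each in the lower Dpp4 level over all gated cells was not tested.

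Cd24a was called lower in subclusters 0, 3 and 7, with log2 ratios of -2.15, -2.26 and -1.38, at 18.2, 36.3 and 35.8 CPM in control against 4.11, 7.61 and 13.8 in IMQ cells, and was at 34.5 and 39.2 in subcluster 1. The lower values rest on 21, 5 and 47 IMQ UMIs, and free RNA could give gated cells 3.39 and 4.24 CPM, so in subcluster 0 the IMQ level was not above it. Pi16 was called higher in subcluster 0 alone, at 125 and 301 CPM (log2 ratio 1.27), with log2 ratios of 0.65, 0.30 and -0.13 in subclusters 1, 3 and 7. Ly6a, Pdgfra, Cd34 and Cd9 were called in none of the 4: their log2 ratios ran from -0.17 to 0.65, from -0.36 to 0.02, from -0.66 to 0.23 and from -0.75 to 0.22. For Pdgfra the log2 ratio of 0.84 over all gated cells was thus larger in size than any seen in the 4 subclusters. For Cd34 it was -0.69 over all gated cells, close to the -0.66 of subcluster 7. The Cd34 ratio in subcluster 7 was 0.635 (0.595 to 0.678), an interval that included the 0.619 of all gated cells. In subclusters 0, 1 and 3 the Cd34 log2 ratios were -0.235, 0.226 and 0.063.

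Subcluster 7 held 64 of 85 IMQ Dlk1 UMIs, in 11 cells, and 10 of 27 control UMIs, in 5 cells. Its level there was 5.19 CPM (2.49 to 9.55) and 18.8 (14.5 to 24.0), a log2 ratio of 1.85, called higher. The 3 IMQ cells with most Dlk1 all belonged to it and held 47 of the 64 UMIs. Without them the IMQ level was 5.07 CPM, close to that of all control cells of the subcluster, and without the 3 control cells with most Dlk1 the control level was 1.06, from 2 UMIs. The difference thus rests on few cells. Subcluster 10, led by Spp1, Ccl9 and Gcg, with 26 control and 67 IMQ cells and a low median depth, held 8 and 5 UMIs. Interstitial progenitor-like cells held 4 control UMIs and 0 IMQ UMIs.

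The genes whose level followed each member most closely over 43 profiles (a cell class or subcluster in 1 library, at least 50 cells) were sought among 14475 genes. The profiles share 2 libraries and their depth, so the correlations of log2(CPM + 1) are descriptions. Ly6a was followed by Ly6c1 (r = 0.90), Has2 (0.81) and Omd (0.81), Pdgfra by Dnm1 (0.95), Mfap2 (0.94) and Gpr153 (0.93), and Cd34 by Mmp2 (0.91), Ms4a4d (0.90) and Glt8d2 (0.89). Pi16 and Dpp4 shared Clec3b, at 0.86 and 0.81, and Dlk1 was followed by Col8a1 (0.79) and Thbs4 (0.75), leading genes of subcluster 7. Cd24a had its nearest genes at 0.59 (Mapk13) and Cd9 at 0.77 (Myo1d). Among the members, Pi16 and Dpp4 had an r of 0.82 over the 43 profiles and 0.65 over the 16 subcluster profiles, and Dpp4 and Cd9 had -0.36 and -0.82.

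Ly6a, Pdgfra and Cd34 together define the precursor gate used in sorting, and their UMIs were often found in the same cell. Each is common alone: at 2000 UMIs they were found in 86.0%, 27.6% and 75.9% of control and 91.4%, 39.6% and 60.7% of IMQ cells. Whether they met in a cell more often than these separate shares would give was not tested. At 2000 UMIs per cell, 1237 of 6362 control cells (19.4%, 18.5 to 20.4) and 806 of 3506 IMQ cells (23.0%, 21.6 to 24.4) held all 3, and without thinning 65.3% and 79.7% did. The share therefore follows depth, and is a count of cells in which all 3 transcripts were caught. Under the gate it was 3 of 2956 control and 2 of 4277 IMQ cells after thinning (0.101% and 0.0468%), and in keratinocyte-like cells 0 of 1063 and 0 of 2063, which allows shares of up to 0.282% and 0.145%. The commonest pattern was Ly6a and Cd34 without Pdgfra, in 47.5% (46.3 to 48.7) of control and 34.7% (33.1 to 36.3) of IMQ cells, and Ly6a and Pdgfra without Cd34 was at 5.28% and 13.1%.

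**Figure D3:**
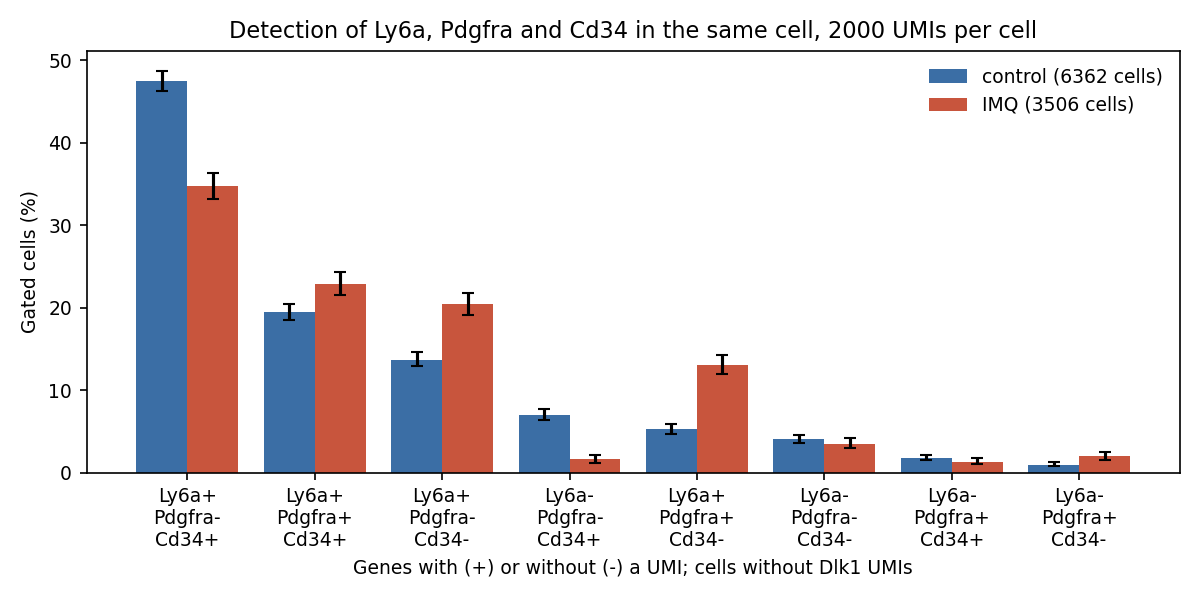
Share of gated cells, thinned to 2000 UMIs each, in each pattern of Ly6a, Pdgfra and Cd34 detection among cells without Dlk1, in percent with exact 95% binomial intervals. Ly6a with Cd34 alone is the commonest pattern, at 47.5% of control and 34.7% of IMQ cells.

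The share of cells with 1 member differed with the detection of another. Among thinned cells with a Ly6a UMI, 77.9% of control and 63.2% of IMQ cells had Cd34, against 63.6% and 35.0% of cells without. Pdgfra was nearly even with respect to Cd34, at 28.1% of control cells with and 26.2% without it, and 40.1% and 38.7% in the IMQ library. Dpp4 was found in 48.2% of control cells with Pi16 and 15.3% without it, and in 34.6% and 9.89% in the IMQ library. For Cd9 the shares ran the other way: 23.8% of control cells with Dpp4 and 45.2% of those without it had Cd9, and 31.0% of IMQ cells with Pi16 against 44.2% without it did. In the IMQ library Cd24a cells, 60 in number, had Ly6a in 76.7% and Cd34 in 40.0%, against 91.6% and 61.1% of the cells without Cd24a. Of the 823 Cd24a UMIs of IMQ gated cells, 176 lay in a subcluster of 34 IMQ cells led by the keratinocyte genes Krt1 and Krt77. One gated cell held 79. The part of such mixed cells in these shares was not tested.

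All of Ly6a, Pdgfra, Cd34 and Dlk1 occurred together in 9 control cells (0.135%, 0.0616 to 0.256) and 17 IMQ cells (0.467%, 0.272 to 0.746) without thinning. After thinning they did so in 0 of 6362 control cells, which at that depth allows a share of up to 0.0472% and sets no limit on the unthinned share, and 3 of 3506 IMQ cells (0.0856%). Of the 14 control cells with Dlk1, 11 had Ly6a, 10 Pdgfra, 11 Cd34 and 9 all 3, and of the 24 IMQ cells 22, 24, 18 and 17 did. The Dlk1 cells had a median of 5959 and 13366 UMIs, against 9474 and 13297 in all gated cells.

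**Figure D4:**
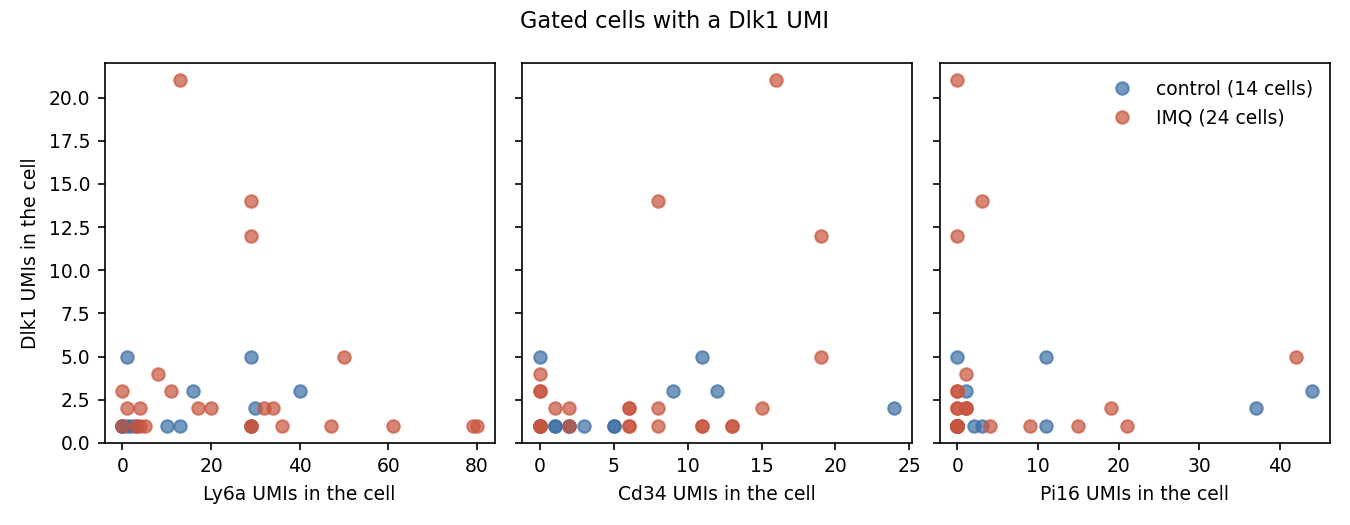
UMIs of Dlk1 against those of Ly6a, Cd34 and Pi16 in each gated cell with a Dlk1 UMI, 14 control cells in blue and 24 IMQ cells in red. The IMQ cells with 21, 14 and 12 Dlk1 UMIs also hold Ly6a and Cd34, and have at most 3 Pi16 UMIs.

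Gated cells held 59.2% of all control and 37.1% of all IMQ UMIs. In the gate lay 95.7% of control and 86.3% of IMQ UMIs of Ly6a, 92.5% and 91.7% of Pdgfra, 99.2% and 91.2% of Cd34, 99.0% and 97.8% of Pi16, and 96.1% and 92.5% of Dpp4. Dlk1 was similar, at 87.1% and 89.5%. Of Cd24a only 35.1% and 4.89% lay there, and of Cd9 29.8% and 18.3%, so most UMIs of both lay outside.

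Outside the gate, lineages were named from clusters built without the members, and given a level with at least 50 cells of a library. A level set by free RNA from broken fibroblasts was estimated from each class's own UMIs of the 4 gate genes. Pdgfra was at 2.85 CPM or less in every named lineage. It was at 157 CPM (146 to 169) in control and 356 (335 to 377) in IMQ cells of an unnamed cluster of 195 and 105 cells led by Slc26a7, Notum, Prlr, Lef1 and Crabp1, a log2 ratio of 1.18. Free RNA could give 1.23 and 5.39 CPM there. The same cluster held Dpp4 at 74.0 and 62.7 CPM, Cd24a at 145 and 232 and Cd9 at 1560 and 579, but Ly6a at only 17.7 and 29.6, against 11.2 and 46.4 from free RNA. An unnamed cluster of 465 control cells, led by Fcgbp, Guca2a and H2-M2 and with Col17a1 also among its leading genes, had Ly6a at 239 CPM (230 to 249) and Pdgfra at 1.81. In the 76 control and 58 IMQ cells under the gate of an unnamed cluster led by Coch and Col11a1, Pdgfra was at 150.5 and 165.4 CPM.

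Ly6a was not confined to fibroblast-like cells, and its level in lymphocytes differed more between the libraries than in gated cells. T cell-like cells were at 102 CPM (84.3 to 122) in 314 control and 976 (934 to 1019) in 400 IMQ cells, a log2 ratio of 3.26. UMIs were found in 22.3% and 68.0% of them, or 15.2% and 59.7% at 2000 UMIs, and free RNA could give 17.8 and 12.6 CPM. The difference was present within 2 T cell-like clusters, from 104 to 1305 CPM in one of 233 and 215 cells, and from 93.2 to 368 in one of 76 and 121. Among genes measured in T cell-like cells 8.85% were called higher and 7.17% lower.

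Natural killer-like cells had Ly6a at 20.4 CPM (9.79 to 37.5) and 194 (163 to 231), a log2 ratio of 3.25 against called shares of 7.76% higher and 6.69% lower. Free RNA could give 15.8 and 6.10, and the former lies inside the control interval. Free RNA could also give 10.1 and 6.58 CPM in dendritic-like cells, again inside the control interval, where Ly6a was at 12.3 (5.91 to 22.7) and 143 (123 to 166) CPM, a log2 ratio of 3.54, from 8 of 112 and 41 of 128 cells. In that class 7.26% of genes were called higher and 3.94% lower. Macrophage/monocyte-like cells went the other way, at 291 CPM in control and 28.1 in IMQ cells, a log2 ratio of -3.37 against 6.21% higher and 10.8% lower. Of the 102 control UMIs there, 92 lay in 5 of 79 cells and 49 in a single cell, and without the 5 cells with most UMIs in each library the log2 ratio was -1.28. Pericyte-like and Schwann-like cells were also called higher, at 13.5 and 62.1 and at 34.6 and 82.3 CPM, beside 17.8 and 82.1 and 29.9 and 72.8 from free RNA, with called shares of 13% and 10.4% in the former and 3.67% and 2.26% in the latter. In the IMQ library 5 cells held 103 of 122 pericyte UMIs and 46 of 60 Schwann UMIs. Without the 5 cells with most in each library the pericyte level was 7.24 and 10.2 CPM and no longer called, and the Schwann level 3.78 and 20.7, from 2 and 14 UMIs. Endothelial-like cells of the IMQ library, 124 in number, had Ly6a at 1735 CPM (1681 to 1791) and Cd34 at 616 (584 to 649).

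**Figure D5:**
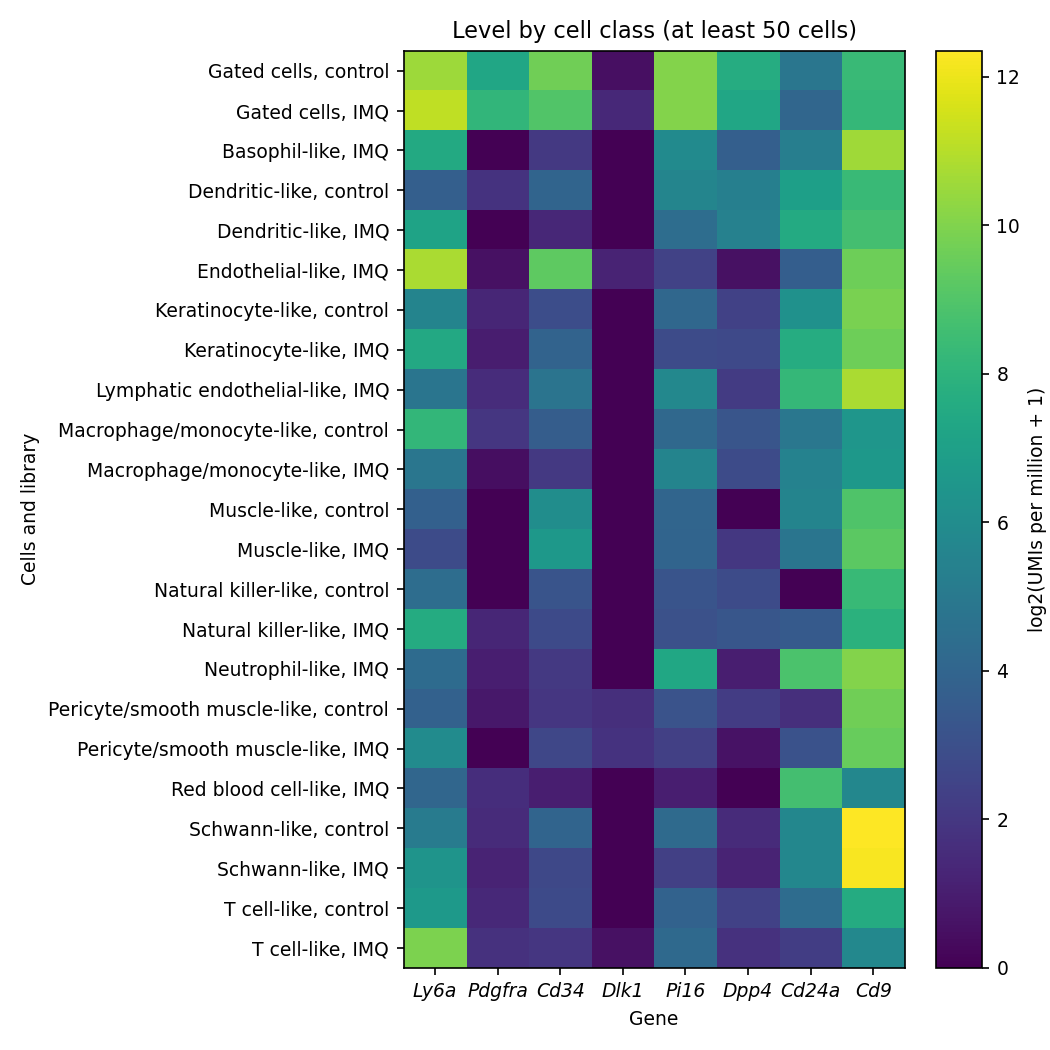
Level of each gene in gated cells and in the named lineages under the gate with at least 50 cells, as log2(CPM + 1), where brighter is higher. Unnamed clusters are not shown. Pdgfra stays dark in the named lineages, Ly6a is bright in IMQ T cell-like and endothelial-like cells, and Cd9 peaks in Schwann-like cells at 5223 and 4872 CPM.

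Keratinocyte-like cells had Ly6a at 46.5 CPM (43.8 to 49.4) in 1081 control and 177 (174 to 180) in 2115 IMQ cells, a log2 ratio of 1.92, and Cd34, a marker of hair follicle stem cells in mouse skin, at 6.56 and 14.5. In this class 19.9% of genes were called higher and 11.2% lower. Different clusters held it in the 2 libraries: control cells were mainly in clusters 3, 11 and 26, and IMQ cells in 20, 25, 34 and 37. The unnamed cluster led by Fcgbp, with 465 control and 3 IMQ cells under the gate, was not counted in this class. Its control cells held 2651 Ly6a UMIs, at 239 CPM, against 1086 in control keratinocyte-like cells. How the keratinocyte ratio would change with that cluster included was not tested. In the 2 clusters with at least 50 cells of each library, Ly6a was at 87.4 and 289 CPM in cluster 20, a log2 ratio of 1.73, and at 22.2 and 15.2 in cluster 25, one of -0.55. At 2000 UMIs a Ly6a UMI was found in 7.71% and 16.04% of keratinocyte-like cells, a Pdgfra UMI in 0.376% and 0.242% and a Cd34 UMI in 1.13% and 3.44%, and their median depths were 16866 and 25746 UMIs.

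Cd24a, the mouse CD24, was highest in IMQ neutrophil-like cells at 461 CPM (419 to 507), whose interval overlapped that of red blood cell-like cells at 397 (358 to 439), followed by lymphatic endothelial-like cells at 300.7 (277 to 326). Keratinocyte-like cells were at 74.1 and 201 CPM, a log2 ratio of 1.44, but in the 2 shared clusters it was 0.19 and 0.23. In T cell-like cells Cd24a was at 19.5 CPM in control and 3.78 in IMQ cells, a log2 ratio of -2.37 from 23 and 8 UMIs. Cd9 was highest in Schwann-like cells, at 5223 (5034 to 5418) and 4872 (4713 to 5035) CPM, about the same in both libraries. In IMQ, lymphatic endothelial-like cells followed at 1767, basophil-like cells at 1554 and neutrophil-like cells at 1077. In T cell-like cells Cd9 was lower in the IMQ library, at 192 and 52.9 CPM, a log2 ratio of -1.86, and in keratinocyte-like cells it was at 937 and 795.

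Pi16 and Dpp4 outside the gate were low, with a few exceptions. IMQ neutrophil-like cells had Pi16 at 161 CPM (137 to 189), with a UMI in 103 of 288 cells and at most 6 UMIs in any cell. Macrophage/monocyte-like cells had it at 17.1 and 46.5 CPM, which was called higher, but at a clustering resolution of 0.5 the log2 ratio was -0.031. Keratinocyte-like cells had 16.6 and 6.11 CPM and dendritic-like cells 48.1 and 20.4, both called lower. In control, 229 of 387 keratinocyte and 23 of 39 dendritic UMIs lay in 5 cells, and without the 5 cells with most in each library the levels were 6.84 and 3.29 and 21.7 and 5.76 CPM. Dpp4, known as CD26 on lymphocytes and dendritic cells, was at 39.5 and 41.5 CPM in dendritic-like cells and 4.24 and 2.36 in T cell-like cells. Dlk1 had 3 and 5 UMIs in pericyte-like cells (2.12 and 2.54 CPM) and 3 in IMQ endothelial-like cells.

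Of 25 measured genes of a wider set of adipocyte precursor markers 20 met neither condition, 2 were called higher in IMQ gated cells, F3 (29.7 and 123 CPM) and Fmo2 (22.1 and 54.0), and 3 lower, Efhd1 (45.4 and 22.4), Clec11a (94.3 and 34.8) and Col15a1, a basement membrane collagen of preadipocytes (337 and 143). The list's median log2 ratio was 0.09, beside 0.25 for all genes, of which 11.5% were called higher and 5.46% lower. Some of its genes also served to name subclusters. Of 21 measured genes of committed and mature adipocytes, 5 were called higher and 5 lower, with a median of -0.12. Higher were Pparg, the master regulator of adipogenesis (1.49 and 3.82 CPM), Lpl, a secreted lipase (202 and 662), Cd36 (1.002 and 2.16), the lipid droplet protein Plin2 (29.1 and 91.9) and Fabp5 (42.0 and 243). For Fabp5, 2344 of 12453 IMQ UMIs came from 1 cell, and its level without that cell was 197.

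The 5 lower genes were those of mature adipocytes and rested on few cells. For Cfd (adipsin), 751 of 757 control UMIs lay in 1 cell, and without the cell with most UMIs in each library its level was 0.0884 CPM in control and 0.117 in IMQ. For Cidec all 28 control UMIs lay in 1 cell, for Adipoq 42 of 65, for Plin1 21 of 33, and for Car3 417 of 804, against IMQ totals of 2, 1, 2 and 33. In all, 2 control gated cells and 0 IMQ gated cells had over 1% of UMIs in mature adipocyte markers.

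For the partners of Pdgfra, 5 genes were measured and 1 was called lower, Pdgfc, a ligand (19.0 and 8.30 CPM). The second receptor Pdgfrb was at 83.9 and 100.4, and the list's median log2 ratio was 0.10. Of 15 genes of the Notch pathway, to whose ligands Dlk1 is related, 1 was called higher, Heyl, a target gene (0.398 and 3.58 CPM), and none lower, with a median of -0.08. Hes1 was at 140 and 74.1 CPM, a log2 ratio of -0.92. Of 12 other Ly6 family genes 1 was called higher, Ly6c2, with 11 and 21 UMIs, and 3 lower, Lypd1, Lypd3 and Ly6g6c. For Ly6g6c, 291 of 3220 control and 263 of 631 IMQ UMIs lay in 1 cell, and keratinocyte markers exceeded 1% of UMIs in 56 control and 17 IMQ gated cells; their part in the result was not tested. Ly6c1, which followed Ly6a most closely, was at 878 and 1094 CPM, a log2 ratio of 0.32.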

How the data were processed

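The authors deposited raw UMI counts, which were used unchanged. Per the file headers they were written by Cell Ranger 5.0.0, while the submitters' processing notes name Cell Ranger 3.0.2, Seurat 2.0 and mm10; aligner settings and annotation are not given in the sources used here. Cells with at least 200 genes and at most 10% mt- UMIs were kept (10297 of 10857 barcodes in control, 8499 of 9414 in IMQ), and doublets were removed with Scrublet in scanpy 1.11.5 on Python 3.11.15, leaving 9875 and 8389 cells with 114688094 and 138302539 UMIs.

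Both libraries were clustered together without integration, with 2000 variable genes that left out the members, 30 components, 15 neighbours and Leiden resolution 1, and gated cells again at 0.5. Clusters took a name from at least 3 detected markers; the clusters led by Pcp4 and by Wif1 were set to unnamed after their leading genes were seen. Levels are UMIs summed over cells and divided by all their UMIs, with exact Poisson, Clopper-Pearson and conditional binomial intervals at 95% (scipy 1.17.1). Genes with 20 or more UMIs in the gated cells of the 2 libraries together were taken as measured, and as called when at least 2-fold different with an interval that excluded equality. Since each group had 1 library, no test was run. The comparison step was tested on simulated data. Free RNA in gated cells was estimated from keratinocyte and leukocyte markers at 7.13% and 3.48% of the library-wide level. A count of 0 was given an upper limit of 3 counts.

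The members and the 11 gene lists were chosen with earlier results of these data known. Named genes were the members, up to 4 extreme genes of each list and the 3 genes most like each member, by correlation among genes with at least 100 UMIs; Cd36, Cidec, Efhd1, Fabp5, Lpl, Plin2 and Pparg were added to these after their values were seen, and not every gene the rule takes is printed. Alternatives were another gate, filter, doublet, scaling, weighting, resolution or thinning choice.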

Additional observations from a re-analysis of the deposited data

Results flagged for a closer look

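For 3 genes the IMQ to control ratio had opposite signs in 2 lineages, and in none was that difference tested, since each group had 1 library. For Ly6a the log2 ratio was 3.54 in dendritic-like and -3.37 in macrophage/monocyte-like cells, a gap of 6.91, and 49 of the 102 control macrophage UMIs came from 1 cell, while the control dendritic level of 12.3 CPM stood beside 10.1 from free RNA. For Pi16 it was 1.44 in macrophage/monocyte-like cells, from 6 and 121 UMIs, and -1.44 in keratinocyte-like cells, where 229 of 387 control UMIs lay in 5 cells, a gap of 2.89 (2.885 before rounding). For Cd24a it was 1.44 in keratinocyte-like and -2.37 in T cell-like cells, a gap of 3.81, and in the T cell-like cells it rested on 23 control and 8 IMQ UMIs.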

How the results depend on the processing

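No paired analysis was possible because each group had 1 library, and leaving out a library was not possible either. Of the members, 2 were called higher with the gate at 5% of UMIs and 3 with the gate limited to fibroblast-like clusters, against 1, and 1 was called lower, against 0, under those 2 settings, median-ratio scaling and removal of the mixed subclusters; the last of these, the equal weighting of shared subclusters and the removal of cells with most UMIs were chosen after seeing the data. The lower member was Cd24a, whose log2 ratio was also past 2-fold, at -1.07, with free RNA subtracted. Over 12 alternatives (13 for Dlk1) the log2 ratios ran from 0.24 to 0.74 for Ly6a, -0.17 to 1.19 for Pdgfra, -0.94 to -0.17 for Cd34, 0.98 to 2.20 for Dlk1, -0.24 to 1.73 for Pi16, -0.58 to -0.16 for Dpp4, -1.43 to -0.63 for Cd24a and -0.51 to -0.01 for Cd9. Precursor markers called higher numbered 5 in fibroblast-like clusters, against 2, and adipocyte genes called lower 2 with at least 100 UMIs, against 5. The share of cells with Ly6a, Pdgfra and Cd34 was 7.13% in control and 7.56% in IMQ at 1000 UMIs. At 5000 UMIs it was 46.4% and 55.7%, and 0.0889% and 0.365% with Dlk1 as well. With doublets kept it was 21.4% (21.35) in IMQ. Without thinning, 38.1% of control and 62.4% of IMQ cells held at least 2 UMIs of each of Ly6a, Pdgfra and Cd34. Those shares are not matched for depth, since gated cells had a median of 9474 UMIs in control and 13297 in IMQ. Pi16 in macrophage/monocyte-like cells turned to a log2 ratio of -0.031 at resolution 0.5, from 1.44, and the cause was not tested. Median-ratio scaling took the calls of the Ly6 family from 1 to 0 higher and from 3 to 5 lower, those of CD24 partners from 1 to 0 higher, those of CAP genes from 2 to 1 higher and those of the Notch list from 0 to 1 lower. Of 23 called values, 22 kept their call and its direction without the 3 or 5 cells with most UMIs in each library; Ly6a in pericyte-like cells did not (log2 ratio 0.50). Of 61 values by lineage 41 stayed within their spread, as did 6 of 10 for the interstitial cells and 37 of 54 for other lists. Depth limits Dlk1 most, with 27 and 85 UMIs.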

Other observations

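Other gene families around the members had few measured genes, and their calls stand beside 11.5% higher and 5.46% lower among all genes of the gated cells. Of 9 measured genes of the DPP4 family and its chemokine substrates, 4 were called higher and 1 lower; the median log2 ratio was 0.65, beside 0.25 for all genes. Cxcl12, a chemokine that DPP4 cleaves, was at 113 CPM in control and 1730 in IMQ cells, 15.4-fold higher, Cxcl10 at 113 and 374, Cxcl9 at 2.11 and 12.9, and the related protease Fap at 22.2 and 50.7. Of 5 CAP-domain relatives of Pi16, Glipr2 (17.2 and 57.8 CPM) and Glipr1 were called higher and Pi15 (58.8 and 16.3) and Crispld1 (19.6 and 7.26) lower, with a median of -0.22.

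Of 15 other tetraspanins and partners 1 was called higher, Cd53, a leukocyte gene (0.383 and 1.36 CPM), and 2 lower, Cd82 (15.3 and 4.62) and Tspan8, with a median of 0.24. Of 5 sialomucins and selectins 2 were called higher, Sele and Selplg, with 5 and 23 and with 38 and 86 UMIs, and of 2 CD24 partners 1, Lyn (2.39 and 5.36 CPM), with medians of 0.79 and 0.82. Of 14 genes induced by tissue dissociation 1 was called higher, Dnajb1 (210 and 836 CPM), with a median of 0.22; its part in the results above was not tested.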
